A study of Mus musculus with 77 samples.

Results

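The genes described here are 8 genes of lipoprotein and lipid transport: *Apod*, *Apoe*, *Clu*, *Abca1*, *Lpl*, *Pltp*, *Vldlr* and *Lrp1*, out of the 21154 genes that could be named on the array. They were chosen by symbol with results of these arrays already known. The lower level of *Apod* on P12 in the mice that had been in oxygen was among the largest differences of that day. It is therefore a description and no independent evidence. The 8 genes had 11 probes, since *Apod*, *Lpl* and *Vldlr* had a second, dimmer probe, and all 11 were followed on all 77 arrays.

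C57BL/6 mice were kept in chambers from postnatal day 7 (P7) to P12, in 75% oxygen (hyperoxia, the model of oxygen-induced retinopathy, OIR) or 21% oxygen (normoxia, control), and were then returned to room air. Retinas were taken on P12, P17 and P28, both retinas of a mouse were pooled, and each mouse had 1 2-color array on which its RNA was hybridized with universal mouse reference RNA. The OIR groups had 13 mice on each day, and the control groups had 12 (P12), 12 (P17) and 14 (P28). No strain, allele or drug differed between the groups. Whole litters were put in 1 of the oxygen levels, with several litters per level. The labels do not give litters, so mice of the same litter were counted as independent and litter could not be used as a block. The spread between mice includes that between litters. Pups were assigned to a day singly, so groups of different days can share litters.

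The level of a gene is given as a log2 ratio of retina to reference RNA. The main value is called the offset ratio, because 50 intensity units were added to each background-corrected channel, which draws the ratios of dim probes toward 0. The ratio as the authors deposited it, without an offset, is called the deposited ratio and gives larger differences for dim probes. A probe was called when its Benjamini-Hochberg adjusted p in limma, over all 55681 probes, was under 0.05. The labels assign Cy5 to the retina, but the rod genes *Sag*, *Gnat1* and *Pde6b* were at least 4.18 higher in Cy3 on every array on the deposited scale, so that Cy3 was read as retina. The rod genes on the marker list were well above background on all arrays, as a retina requires. Between 13764 and 34305 probes of an array were well above background, with more on P28 (median 32167 in control and 32884 in OIR mice) than on P12 (21095 and 20045). Most P28 arrays were scanned on the last of 4 scan days, 9 of 14 in control and 11 of 13 in OIR mice, so that values compared with P28 carry the scan day with them.

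Lipids move between cells on particles held together by apolipoproteins. Apolipoprotein E and clusterin (apolipoprotein J), which in the retina come largely from glia, carry cholesterol and phospholipid, while apolipoprotein D is a small lipocalin that binds fatty acids and other lipids and is made by glia and by cells around vessels. ABCA1 loads cholesterol and phospholipid onto the particles, phospholipid transfer protein moves lipid between them, lipoprotein lipase frees fatty acids from their triglyceride at the vessel wall, and the VLDL receptor and LRP1 take up particles that carry apolipoprotein E.

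RefSeq start regions (GRCm38.p6) were at hand for 6 of the 8 genes. The 250 bases before the start are shown for *Apod*, the member that differed between OIR and control mice on P12, for *Pltp*, which lay lower in OIR mice on every slide on P12, and for *Vldlr*, which rose with age. Both strands were searched for the nuclear receptor element AGGTCA, alone or as a direct repeat spaced by 4 bases, for the hypoxia response core ACGTG, for the motif of the TATA box written as TATAAA, for the motif known as the GC box and written as GGGCGG, for the C/EBP motif TTGCNNAA and for the STAT motif TTCNNNGAA. Matches are in capitals.
Apod, chr16:31314809-31315058, minus strand: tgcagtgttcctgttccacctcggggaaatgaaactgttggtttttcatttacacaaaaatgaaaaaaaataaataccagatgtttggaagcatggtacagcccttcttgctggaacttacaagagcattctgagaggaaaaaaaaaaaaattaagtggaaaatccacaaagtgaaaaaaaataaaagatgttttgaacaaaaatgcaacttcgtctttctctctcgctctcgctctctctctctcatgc
Pltp, chr2:164857709-164857958, minus strand: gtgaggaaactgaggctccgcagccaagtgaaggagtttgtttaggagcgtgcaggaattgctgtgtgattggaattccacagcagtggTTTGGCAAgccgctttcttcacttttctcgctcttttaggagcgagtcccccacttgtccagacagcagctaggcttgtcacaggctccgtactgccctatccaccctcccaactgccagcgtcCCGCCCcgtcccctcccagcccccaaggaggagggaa
Vldlr, chr19:27216234-27216483, plus strand: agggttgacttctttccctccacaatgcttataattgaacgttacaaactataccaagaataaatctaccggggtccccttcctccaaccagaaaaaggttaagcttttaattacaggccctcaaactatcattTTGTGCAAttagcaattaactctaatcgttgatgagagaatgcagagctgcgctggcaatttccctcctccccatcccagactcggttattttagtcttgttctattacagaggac
No searched motif was found before *Apod*, whose 250 bases were 36.4% G and C against a median of 52.4% over all 32851 windows. The *Pltp* window held 1 GC box and 1 C/EBP motif, which 32.7% and 9.56% of all windows held, and the *Vldlr* window shown, the first of 2, held 1 C/EBP motif and no ACGTG, which 16.6% of all windows held. The second *Vldlr* window held 1 GC box. Among the other windows not shown, that of *Abca1* held ACGTG, the TATA motif and GC boxes. The *Lrp1* window held a GC box and a STAT motif, and the second *Apoe* window held the TATA motif. The TATA, nuclear receptor and STAT motifs and the direct repeat were in 12.4%, 14%, 7.02% and 0.0152% of all windows. A match or its absence describes these letters only.

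*Apod*, the lipocalin, was the member with a difference between OIR and control mice, and it was lower in OIR mice at the end of the hyperoxia. On P12 the offset ratio was between 0.86 and 1.79 in control mice, with a median of 1.28. In OIR mice it was between 0.045 and 0.84, with a median of 0.44. All 13 OIR mice thus lay below all 12 control mice, which was the case for only 1 other of the 55681 probes, that of the endothelial gene *Egfl7* (2 probes without overlap, 0.00359%). OIR mice averaged 0.48 ± 0.20 (SD, n = 13) against 1.28 ± 0.25 (SD, n = 12) for controls, a difference of −0.80 (SE 0.088, 95% interval −0.98 to −0.62), or 1.74-fold lower. It was 1 of 12 probes called on P12 (0.0216% of all probes), all of them lower in OIR mice, and no other member probe was called.

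On the deposited scale the *Apod* difference on P12 was −1.14 (SE 0.14), or 2.20-fold lower, and 1 control mouse, at 2.13, lay within the range of the OIR mice, which reached up to 2.31. With that ratio *Apod* was again the only member among the called probes of P12 (0.07% of all probes). There were 7 slides that held OIR and control mice of P12, and *Apod* was lower in OIR mice within each of the 7, by between −1.35 and −0.53. Within the 3 scan days that held both groups, the difference was between −0.86 and −0.65. With the slide as a block, here and below a fixed term unless called random, it was −0.73 (SE 0.072), and without any 1 mouse it stayed between −0.84 and −0.75. In the retina channel alone the difference was −0.89 (SE 0.074), and in the reference channel, which held the same RNA on each array, it was −0.060 (SE 0.026).

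The dimmer *Apod* probe gave no second reading of this. It was well above background on 2 of the 77 arrays, both from control mice on P12, and its offset ratios lay between −0.10 and 0.19 in all groups. Its OIR minus control difference on P12 was 0.000053 (SE 0.024).

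**Figure D1:**
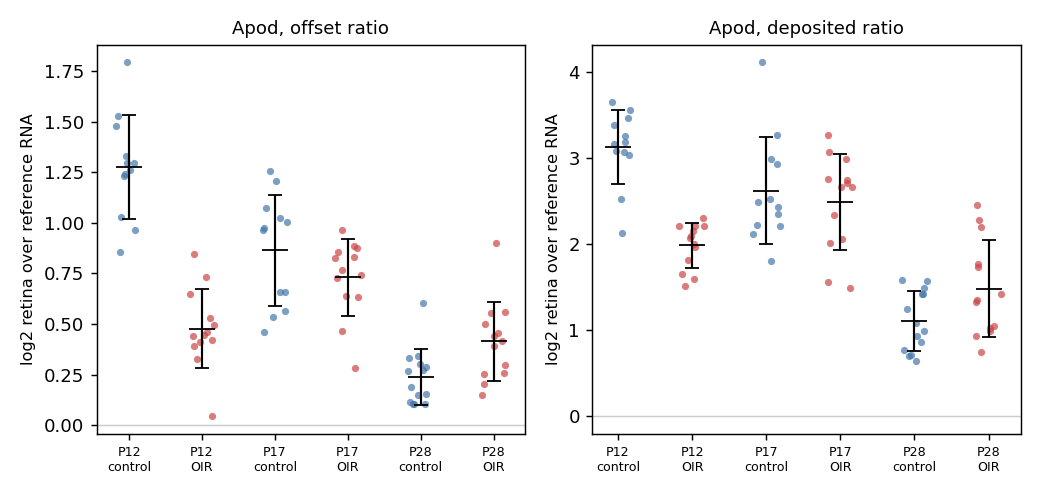
The log2 ratio of retina to reference RNA for the brighter *Apod* probe in each mouse (points, control blue, OIR red) is plotted for the 6 groups, as offset ratio on the left and deposited ratio on the right, with mean and SD. On P12 the highest OIR mouse (0.84) is below the lowest control mouse (0.86) on the offset scale, while the groups of P17 and P28 overlap on both scales.

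The 6 group means of *Apod* spanned 1.04. In descending order they were 1.28 (P12 control), 0.86 (P17 control), 0.73 (P17 OIR), 0.48 (P12 OIR), 0.41 (P28 OIR) and 0.24 (P28 control). Among neighbors in this order, the difference between the control means of P12 and P17 was called, although the mice of these groups overlapped. The other neighboring differences did not pass the threshold. On P17 the ratio was between 0.46 and 1.25 in control mice (median 0.97) and between 0.28 and 0.96 in OIR mice (median 0.77). The groups overlapped on P17, although all 13 OIR mice were below the control median, and the difference was −0.13 (SE 0.091, adjusted p = 0.629). On P28 it was between 0.10 and 0.60 in control mice (median 0.23) and between 0.15 and 0.90 in OIR mice (median 0.42). Here 11 of 13 OIR mice were above the control median, and the difference of 0.18 (SE 0.063) had an adjusted p of 0.586. On the 3 slides with both groups of P28 it was 0.23 to 0.37, and with the slide as a block 0.28 (adjusted p = 0.158).

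In control mice *Apod* declined at each step. From P12 to P17 it fell by 0.41 (SE 0.085, adjusted p = 0.00159), and it was lower on P17 within each of the 7 slides that held control mice of both days. With the deposited ratio this fall was −0.51 and was not called (adjusted p = 0.216). The call was also lost with an offset of 0, with the ratio of the scanner software, with Bonferroni adjustment and with the deposited ratio and a slide block. It fell further by 0.63 from P17 to P28 (SE 0.082, adjusted p = 8.53e-08), again lower within all 6 slides that held both days, and on the deposited scale it was −1.52. In OIR mice the step from P12 to P17 was 0.25 (SE 0.082, adjusted p = 0.0704). It was called with an offset of 0, the retina channel alone, the dim probes left out, a random slide block and array weights. The deposited ratio did not call it (0.50, adjusted p = 0.0955). With the slide as a block it was not called in the offset ratio (0.21, adjusted p = 0.0644). That block called it in the deposited ratio and the retina channel alone, fits chosen after the data were seen. The ratio of OIR mice then fell by 0.32 from P17 to P28 (SE 0.082, adjusted p = 0.00107), with −1.0 on the deposited scale. In that contrast 40.6% of all probes were called, and the *Apod* call was lost with Bonferroni adjustment. Only 1 slide held OIR mice of both days, and on it the step was −0.19. The change of the OIR effect from P12 to P17 was 0.66 (SE 0.12, adjusted p = 0.000202), with 0.487% of all probes called. From P12 to P28 it was 0.97 (SE 0.12, adjusted p = 4.31e-08), with 0.0395% called, and from P17 to P28 it was 0.31 (SE 0.12, adjusted p = 0.27), with 0.278% called. No other member was called in these 3 contrasts, which share arrays, and those with P12 rest on the difference by which *Apod* was chosen.

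Some markers of endothelial cells were lower beside *Apod* on P12. Of 14 endothelial marker genes, 12 had a negative difference and 3 were called, *Cd34* (−0.81), *Egfl7* (−0.86) and *Ramp2* (−0.66), with a list median of −0.26 against −0.00065 over all probes. The mean level of the list was between −0.045 and 0.23 in OIR mice and between 0.25 and 0.68 in control mice. *Pecam1*, a defining endothelial marker, differed by −0.00082 and was well above background on 56 arrays. Of 10 mural cell markers 1 was called, *Abcc9* (−0.37), with a list median of −0.041. No gene was called among 9 fibroblast markers (median 0.16), 12 Mueller glia markers (−0.14), 7 astrocyte markers (0.030), 11 reactive glia markers (0.085), 13 microglia markers (0.048), 9 oligodendrocyte markers (−0.012), 10 rod markers (−0.055), 10 pigment epithelium markers (−0.024) or 7 red cell markers (−0.071), and *Olig1* and *Mobp* were well above background on no array. Of the red cell markers 6 of 7 were negative on P12, among them the globin genes *Hba-a2* (−0.83, SE 0.20), *Hba-a1* (−0.69, SE 0.21) and *Hbb-bt* (−0.48, SE 0.14). The mean level of that list was between 0.19 and 0.79 in OIR mice and between 0.53 and 1.03 in control mice. On P17, 3 of the 14 endothelial markers were called higher in OIR mice (list median 0.18). The called markers of P17 were otherwise 10 reactive glia, 3 mural, 3 astrocyte, 3 microglia, 2 fibroblast and 2 red cell genes, all higher, 1 pigment epithelium gene, lower, and 1 Mueller glia gene in each direction. On P28 they were 3 reactive glia genes and 1 microglia gene, all higher. The retina was measured whole, so fewer cells of a type and less RNA per cell cannot be told apart, and the part of vessel cells or blood in the *Apod* difference was not tested.

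**Figure D2:**
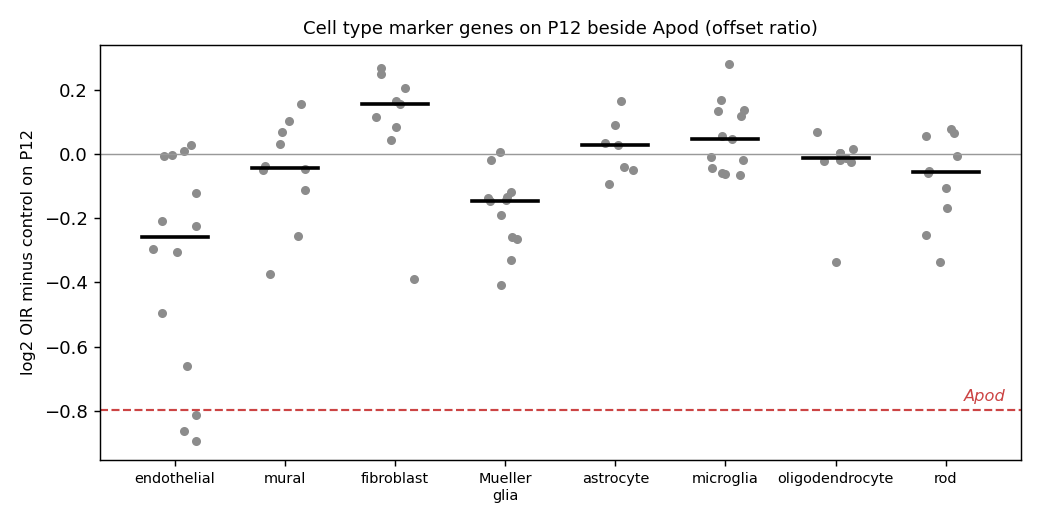
Each point is the log2 difference (OIR minus control, offset ratio) of 1 marker gene on P12, for 8 of the cell type lists, with the list median as a bar and the *Apod* difference of −0.80 as a dashed line. The endothelial list is lowest of the 8 with a median of −0.26, and its genes *Cldn5*, *Egfl7* and *Cd34* lie below the line, of which *Cldn5* was not called.

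By the distance between the 6 centered group means, the probes most like *Apod* among 15040 well above background in the retina on at least 39 arrays were those of *Slc1a7* (root mean square difference 0.14), *Dnmt3a* (0.15) and *Top1* (0.17). They spanned 0.64 to 0.69, less than *Apod*, and none of the 3 was called on P12.

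*Apoe*, the main ligand of the lipoprotein receptors, was not called between OIR and control mice on any day. On P12 its offset ratio was between 2.94 and 5.26 in control mice (median 4.38) and between 3.65 and 5.02 in OIR mice (median 4.51). The groups overlapped almost fully, and the difference was 0.073 (95% interval −0.37 to 0.52). On P17 it was 0.12 (95% interval −0.31 to 0.56) and on P28 −0.20 (95% interval −0.72 to 0.32), with adjusted p-values of 0.849 and 0.81. The SD of *Apoe* within groups was 0.60, and 0.37 once the slide was taken out. Its difference on P28 with the slide as a block was 0.092 (SE 0.066).

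In control mice *Apoe* was not called from P12 to P17 (0.19, adjusted p = 0.954) or from P17 to P28 (−0.47, adjusted p = 0.184). In OIR mice it fell by 0.79 from P17 to P28 (SE 0.23, adjusted p = 0.00406), in a contrast in which 40.6% of all probes were called. The retina channel alone gave a rise of 0.47 (SE 0.12, adjusted p = 0.00174) over the same step. The reference channel rose by 1.06 (SE 0.18), more than the retina channel, so that the ratio and the retina signal went opposite ways. Blocked by slide, the ratio was −0.20 (adjusted p = 0.543), and only 1 slide held OIR mice of both days.

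*Clu*, the chaperone-like apolipoprotein J, had the largest span of group means among the members (1.29), along age, and was not called between OIR and control mice. On P12 its offset ratio was between 1.61 and 3.28 in control mice (median 2.27) and between 1.82 and 2.72 in OIR mice (median 2.22). On P17 it was between 2.89 and 3.92 in control mice (median 3.65) and between 2.81 and 3.94 in OIR mice (median 3.65). The values of the 2 days did not overlap in OIR mice, and in control mice they overlapped only through the highest P12 mice. How many of all probes separated in this way was not counted, and 3.42% of them were called over this step in OIR mice. From P12 to P17 it rose by 1.19 in control mice (SE 0.19, adjusted p = 1.56e-05, 2.28-fold) and by 1.29 in OIR mice (SE 0.18, adjusted p = 2.08e-07, 2.44-fold). It was higher on P17 within all 7 slides that held both days, in control as in OIR mice, and the reference channel changed by 0.042 and 0.18.

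From P17 to P28 the *Clu* ratio was not called in control (−0.30, adjusted p = 0.311) or OIR mice (−0.42, adjusted p = 0.0563). The retina channel alone rose over this step, by 0.40 in control and 0.89 in OIR mice, while the reference channel rose by 0.48 and 0.66, so no direction can be given. Between OIR and control mice the difference was −0.029 on P12 (95% interval −0.37 to 0.31), 0.071 on P17 (95% interval −0.20 to 0.34) and −0.057 on P28 (95% interval −0.52 to 0.41). The probes most like *Clu* over the 6 group means were those of *Guca1b*, a photoreceptor calcium sensor (root mean square difference 0.091), *Vtn*, which encodes vitronectin (0.18), and *Col7a1* (0.19).

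**Figure D3:**
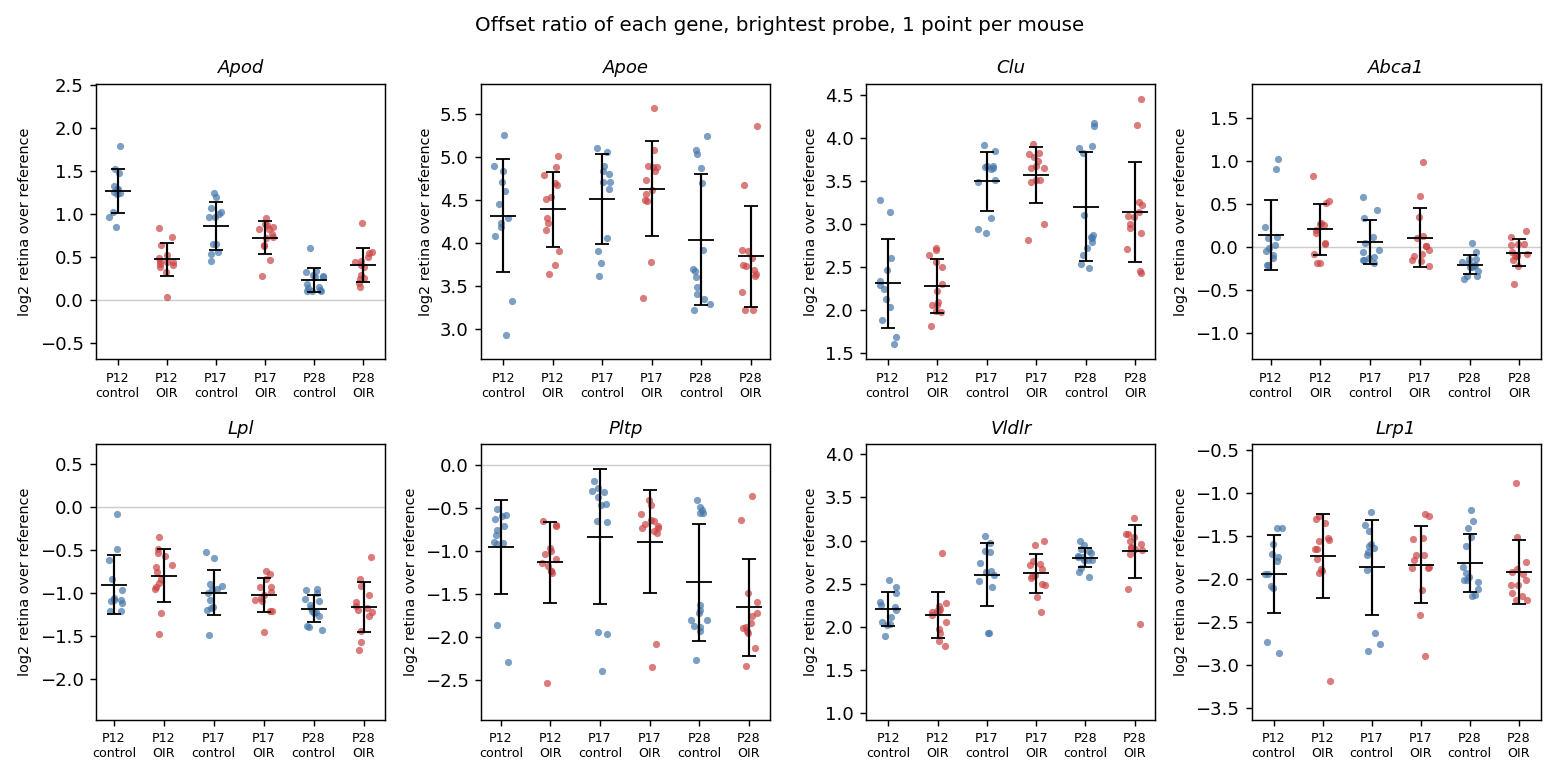
The offset ratio (log2 retina over reference) of the brightest probe of each of the 8 genes is shown for every mouse in the 6 groups (control blue, OIR red), with mean and SD, and each axis spans the same 3.2 log2 units. *Apod* on P12 is the only gene whose OIR and control mice separate on a day, and *Clu* and *Vldlr* are higher on P17 than on P12 in both groups.

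*Abca1*, the exporter that loads lipid onto apolipoproteins, was not called between OIR and control mice, and fell between P12 and P28. On P28 its ratio was between −0.36 and 0.047 in control mice (median −0.21) and between −0.42 and 0.19 in OIR mice (median −0.080). Of the OIR mice 12 of 13 lay above the control median, and the difference was 0.14 (SE 0.050, adjusted p = 0.586), with 0.40 on the deposited scale. On P12 and P17 it was 0.064 (SE 0.14) and 0.052 (SE 0.12). From P17 to P28 *Abca1* was −0.26 in control mice (adjusted p = 0.0948), lower within each of the 6 slides with both days, and −0.23 with the slide as a block (adjusted p = 0.0205). Over the whole period from P12 to P28 it fell by 0.35 in control mice (SE 0.11, adjusted p = 0.0132) and by 0.27 in OIR mice (SE 0.11, adjusted p = 0.0384), and with the slide as a block by 0.36 and 0.34, called in both. The calls of the offset ratio were lost in both groups with Bonferroni adjustment, and in OIR mice also without background subtraction.

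The transfer protein and the lipase were not called between OIR and control mice. *Pltp*, the phospholipid transfer protein, was between −2.29 and −0.51 in control mice (median −0.78) and between −2.54 and −0.65 in OIR mice (median −1.09) on P12. The difference was −0.18 (SE 0.20, 95% interval −0.59 to 0.23), but 10 of 13 OIR mice were below the control median and the ratio was lower in OIR mice within each of the 7 slides, by between −0.49 and −0.14. Its SD within groups was 0.62, and 0.29 with the slide taken out. With the slide as a block the difference was −0.36 (SE 0.062, adjusted p = 0.0572), and the same block called it in the deposited ratio (−0.52) and in the retina channel alone (−0.36), alternatives that were chosen after the data were seen. On P17 the difference was −0.059 (SE 0.27), lower within all 6 slides, and with the slide as a block −0.26 (adjusted p = 0.608). On P28 it was −0.29 (SE 0.23, adjusted p = 0.723), and with the slide as a block −0.015, lower within 2 of 3 slides.

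From P12 to P17 *Pltp* was not called in control (0.12, adjusted p = 0.981) or OIR mice (0.24, adjusted p = 0.905), but it was higher on P17 within each of the 7 slides with both days in either group. With the slide as a block the step was 0.26 (adjusted p = 0.35) and 0.32 (adjusted p = 0.0816). In OIR mice *Pltp* was called from P17 to P28, where it fell by 0.76 (SE 0.24, adjusted p = 0.00688). Blocked by slide, it was −0.18 (adjusted p = 0.484). In control mice the same step was −0.53 (adjusted p = 0.132). *Lpl*, the lipase, was not called between OIR and control mice on either probe. On the brighter probe, well above background on 75 arrays, the differences between OIR and control mice were 0.10 (SE 0.13) on P12, −0.029 (SE 0.089) on P17 and 0.016 (SE 0.087) on P28. The dimmer probe, above background on 39 arrays, gave 0.033 (SE 0.064), 0.0013 (SE 0.062) and −0.031 (SE 0.052). On the deposited scale the 2 probes were lower in OIR mice on P17, by −0.43 (SE 0.13) and −0.38 (SE 0.27), and neither was called. From P12 to P28 the brighter probe fell by 0.28 in control mice (SE 0.10, adjusted p = 0.0398) and by 0.37 in OIR mice (SE 0.10, adjusted p = 0.00277), and the dimmer one by 0.17 in OIR mice (SE 0.060, adjusted p = 0.0198). All 3 calls were lost with the slide as a block, although the brighter probe kept its call in OIR mice with the slide as a random block, and on the deposited scale the values were −0.047, −0.0093 and 0.29, so no direction can be given.

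*Vldlr*, a receptor for particles that carry apolipoprotein E, rose with age in both groups. On P12 its ratio was between 1.89 and 2.54 in control mice (median 2.21) and between 1.78 and 2.85 in OIR mice (median 2.17). On P17 it was between 1.92 and 3.05 in control (median 2.64) and between 2.17 and 3.00 in OIR mice (median 2.60). The days overlapped, but the rise of 0.40 in control mice (SE 0.10, adjusted p = 0.0277) and of 0.48 in OIR mice (SE 0.10, adjusted p = 0.000554) was called, and it was higher on P17 within 6 of 7 slides in each group. The call in control mice was lost without background subtraction and with Bonferroni adjustment. From P17 to P28 it rose by 0.25 in OIR mice (SE 0.10, adjusted p = 0.0348). This call was lost with the deposited ratio (0.082), with the slide as a block (0.13) and without the arrays of low correlation. It was also lost with an offset of 0, the scanner ratio, a random slide block, Bonferroni adjustment and the deposited ratio with a slide block. In control mice the step was 0.20 (adjusted p = 0.185).

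The OIR minus control difference of *Vldlr* was −0.067 (SE 0.092) on P12, 0.018 (SE 0.12) on P17 and 0.070 (SE 0.087) on P28. Within each of the 3 slides with both groups of P28 it was higher in OIR mice, by 0.10 to 0.14. With the slide as a block it was 0.13 on P28 (adjusted p = 0.296). The same block called it in the retina channel alone (0.16, adjusted p = 0.0469), a fit chosen after the data were seen. On P28, 11 of 13 OIR mice were above the control median and 5 above all control mice, although 2 were below all of them. The dimmer *Vldlr* probe was well above background on 29 arrays, on 0 of 13 OIR and 3 of 12 control arrays of P12. It was called once, from P17 to P28 in OIR mice (−0.10, adjusted p = 0.0315), against the direction of the brighter probe, and with the deposited ratio it was 0.030. The probes most like *Vldlr* over the 6 group means were those of *Crebl2* (root mean square difference 0.025), *Srxn1* (0.042) and *Hilpda*, a lipid droplet gene (0.044).

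*Lrp1*, the large endocytic receptor for apolipoprotein E and many other ligands, was called in no contrast and its 6 group means spanned 0.21. Over all groups its ratio lay between −3.19 and −0.88, with group medians between −2.02 and −1.65. The OIR minus control differences were 0.21 (95% interval −0.17 to 0.59) on P12, 0.033 (95% interval −0.37 to 0.44) on P17 and −0.10 (95% interval −0.37 to 0.17) on P28. With the slide as a block, which lowered its SD within groups from 0.45 to 0.24, it was 0.34 higher on P28 than on P12 in control mice (adjusted p = 0.0163).

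Counted by contrast, 1 of the 11 member probes was called between OIR and control mice on P12, and 0 were called on P17, where 1.14% of all probes were called with the offset ratio and 2.64% with the deposited ratio. On P28, 0 member probes were called, with 0.0611% of all probes called with the offset ratio and 0.203% with the deposited ratio. At an unadjusted p under 0.05 there were 1, 0 and 2 member probes on P12, P17 and P28, against 1741, 5769 and 4145 of all 55681 probes. From P12 to P17, 3 member probes were called in control mice (1.28% of all probes) and 2 in OIR mice (3.42%). From P17 to P28 it was 1 in control mice (13.4%) and 5 in OIR mice (40.6%), and with the slide as a block it was only *Apod* in OIR mice and *Apod* and *Abca1* in control mice. From P12 to P28, a step added after the data were seen, 5 member probes were called in control mice (23% of all probes), those of *Apod*, *Clu*, *Abca1*, *Lpl* and *Vldlr*, and 5 in OIR mice (39.3%). *Clu* rose over it by 0.89 and 0.86 in control and OIR mice, with 1.55 and 2.02 in the retina channel alone and 0.52 and 0.84 in the reference channel. *Vldlr* rose by 0.60 and 0.74, and *Apod* fell by 1.04 in control mice and was −0.062 in OIR mice (adjusted p = 0.593; −0.50 and called on the deposited scale). These age contrasts share arrays.

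**Figure D4:**
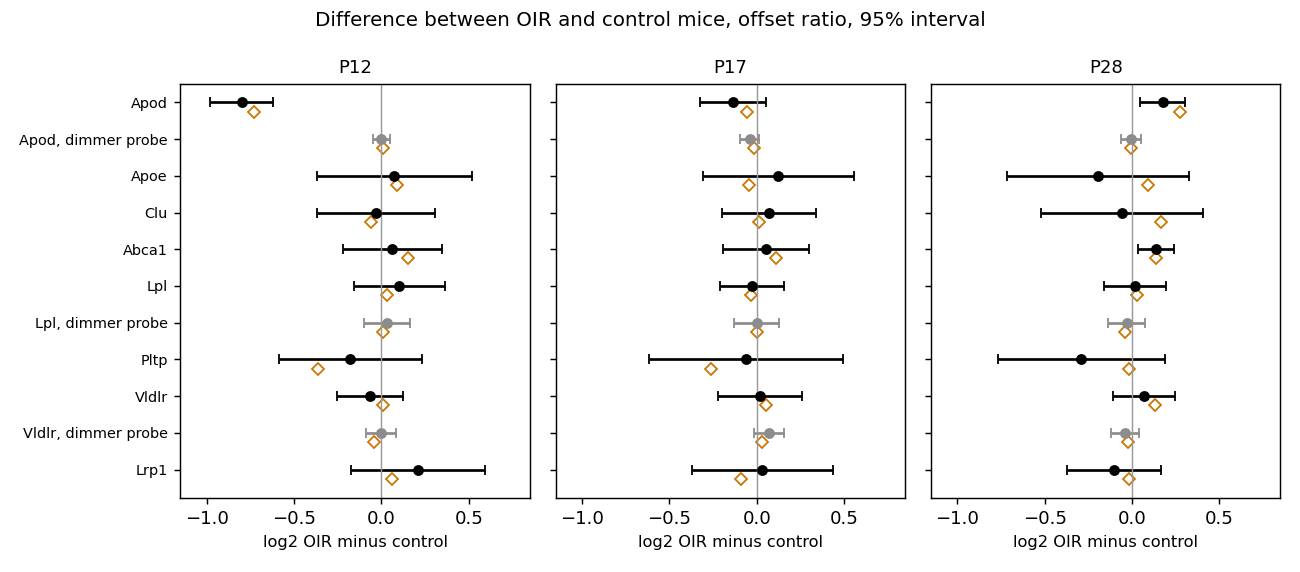
For each of the 11 member probes the log2 difference between OIR and control mice is given for P12, P17 and P28 (offset ratio, circles with 95% interval, dimmer probes gray), with the difference after taking out the slide as open diamonds. The interval of *Apod* on P12 (−0.98 to −0.62) lies far from 0, and the diamonds of *Pltp* on P12 and P17 lie to the left of the circles.

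Other genes of lipid transport and sterol balance were taken as a list of 117 genes, of which 1 had no probe. On P12, 0 of the measured genes were called, with a median difference of 0.0074. With the deposited ratio 2 were called, both lower in OIR mice, *Mfsd2a*, the lysophospholipid carrier of the blood-retina barrier (−0.74), and *Angptl4*, an inhibitor of lipoprotein lipase (−0.59), named here after their values were seen. The offset ratio of *Mfsd2a* on P12 was between 0.20 and 1.16 in control mice (median 0.36) and between −0.034 and 0.50 in OIR mice (median 0.13), so that the groups overlapped.

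On P17, 4 of the listed genes were called, or 3.45% of those measured against 1.14% of all probes. The shares have unlike bases, since each listed gene was counted by its brightest probe, while 28026 of all 55681 probes had a symbol. No excess of listed genes can be read from them. *Fabp3*, which binds fatty acids in the cytosol, was between 0.53 and 1.06 in control mice (median 0.73) and between −0.33 and 0.44 in OIR mice (median 0.18). The difference was −0.61 (SE 0.075, adjusted p = 1.47e-05). *Idi1* and *Sqle*, enzymes of sterol synthesis, were lower in OIR mice by 0.44 (SE 0.085, adjusted p = 0.00566) and by 0.30 (SE 0.072, adjusted p = 0.038). With the slide as a block *Idi1* had an adjusted p of 0.053. *Stab1*, a scavenger receptor of macrophages and sinusoidal endothelium, was between −0.15 and 0.14 in control mice (median 0.020) and between 0.18 and 0.81 in OIR mice (median 0.61). It was higher in OIR mice by 0.52 (SE 0.062, adjusted p = 1.02e-05). On that day 3 of 13 microglia markers were called higher, with a list median of 0.33, and the part of microglia in the *Stab1* difference was not tested.

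By role, 2 of 22 genes of sterol regulation and synthesis, 1 of 16 fatty acid carriers and droplet proteins and 1 of 23 receptors were called on P17. None of 17 ABC transporters, 17 apolipoproteins or 21 lipases and transfer proteins was called. The list median was −0.0079 against 0.0010 over all probes. With the deposited ratio, which called 2.64% of all probes, 15 genes were called, 7 higher and 8 lower. On P28 only *Apoc1*, an apolipoprotein that slows the uptake of particles, was called. It was between −0.18 and 0.14 in control mice (median 0.049) and between 0.10 and 0.57 in OIR mice (median 0.29). The level in OIR mice was higher by 0.26 (SE 0.046, adjusted p = 0.0104). The deposited ratio gave 0.63 with an adjusted p of 0.143 for *Apoc1*, and called 2 others higher, *Plin4* (1.17) and *Trem2* (0.73), named after their values were seen. With age, 3 listed genes were called in control mice from P12 to P17, or 2.59% against 1.28% of all probes. From P17 to P28 it was 19, or 16.4% against 13.4%, with 11 higher and 8 lower. These shares have the same unlike bases as on P17.

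**Figure D5:**
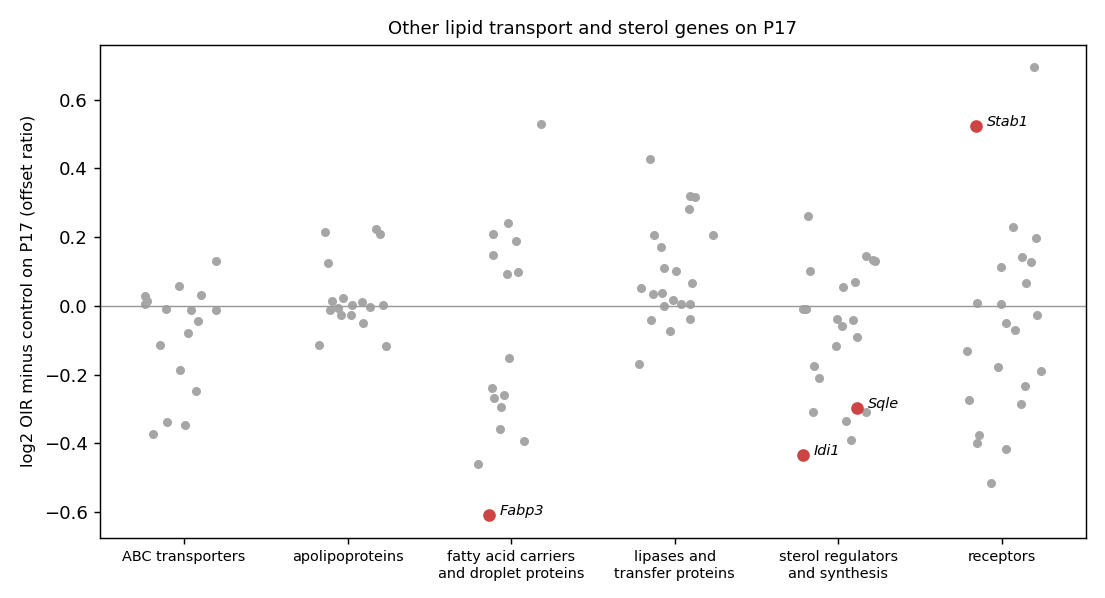
Each point is the log2 difference (OIR minus control, offset ratio) of 1 measured gene of lipid transport and sterol balance on P17, by role, and the 4 called genes are red and named. *Fabp3*, *Idi1* and *Sqle* lie below 0 and *Stab1* above.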

How the data were processed

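Retinas of 77 mice were measured, with 1 array per mouse. Per the file headers, the authors extracted the median spot and background intensity values with Agilent Feature Extraction 10.7.3.1 (design annotated on mm9), and the software's log10 ratio of the processed signals was deposited beside them. The deposited table held log2 ratios of processed Cy3 to Cy5, equal to those of the scanner files within 0.001 for 99.7% of probes on the array with the lowest share; its normalization settings are not given in the sources used here. Number of arrays, not read depth, limits the precision.

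Median signals were corrected with normexp (limma 3.58.1, R 4.3.3, and the data.table package, version 1.17.8; offset 50) and normalized by loess within arrays, with control spots at weight 0. Outlier spots (0.592 to 0.951% of 62976 per array) were left out, spots of a probe averaged, and ratios turned to retina over reference. Symbols came from the transcript named for each probe (28026 probes). The oxygen groups were compared within each day by the moderated statistic of limma, age steps and changes of the OIR effect in 1 model of 6 group means, all with Benjamini-Hochberg adjustment over 55681 probes at 0.05. The procedure was tested on simulated data.

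The member genes and all lists were chosen with earlier results of these data known. Named genes were all members, other lipid genes called on a day (up to 4 per direction and day), and the 3 probes nearest in the 6 group means for members spanning over 0.5, which were also found for *Apoe* (*Cobll1*, *Rbp3* and *Mcm4*) and *Pltp* (*Fryl*, *Tnfrsf9* and *Zfp691*). A gene stands by its brightest probe. Alternatives changed background, offset, ratio, dim probes, slide block, weights, variance model and adjustment.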

Additional observations from a re-analysis of the deposited data

Results flagged for a closer look

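The effect of hyperoxia on *Apod* differed between days by the test of the difference itself. It changed by 0.66 from P12 to P17 (adjusted p = 0.000202) and by 0.97 from P12 to P28 (adjusted p = 4.31e-08), in a limma model of all 6 groups. Both changes contain the P12 difference by which the gene was chosen, and both are thus descriptions. The groups held more than 10 mice each, so that single mice were not tested as outliers.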

How the results depend on the processing

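No paired analysis was possible because the replicate numbers are mouse numbers that no 2 mice share. The deposited and retina-alone fits with a slide block, the fit without 3 arrays of median correlation under 0.85 and the step from P12 to P28 were chosen after the data were seen. *Apod* on P12 was called under all 15 alternatives, from −1.16 to −0.67. Of 32 uncalled differences between OIR and control mice, 22 changed sign under at least 1 alternative. For all following changes the cause was not tested.

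Member probes called on P12 (1) became 2 with the deposited ratio or the retina channel with a slide block, and on P28 (0) 1 with the latter, the brighter *Vldlr* probe. From P12 to P17 control mice (3) had 1 with Bonferroni, and OIR mice (2) had 4 with offset 0, 5 with the retina channel, 1 with Bonferroni, and 5 and 6 with the deposited ratio and the retina channel with a slide block. From P17 to P28 control mice (1) had 2 with offset 0, the retina channel and a fixed or random slide block, 6 with array weights, and 3 with the deposited ratio or the retina channel with a slide block. OIR mice (5) had 1 with a fixed or random slide block, 8 with array weights, 0 with Bonferroni and 2 with the deposited ratio and slide block. From P12 to P28 control mice (5) had 2 with Bonferroni, and OIR mice (5) had 3 with the slide block on the offset or deposited ratio, 9 with array weights and 1 with Bonferroni.

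Other lipid genes called on P12 (0) became 2 with the deposited or scanner ratio and 1 with the retina channel, with or without a slide block. On P17 (4) they became 7 with offset 0 and with 1 fit over all groups, 15 with the deposited and 16 with the scanner ratio, 12 with the retina channel, 8 with a random slide block, 11 with array weights, 2 with Bonferroni, and 12 and 13 with the deposited ratio and the retina channel with a slide block. On P28 (1) they became 2 with the deposited or scanner ratio, the retina channel or array weights, 0 with Bonferroni and 3 with the retina channel and slide block.

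Of the single member values, 30 changed sign where they were called in the main setting or in the alternative, all in steps to P28. With the retina channel alone, and with a slide block added, *Clu* from P17 was 0.40 and 0.34 in control mice and 0.89 and 0.73 in OIR mice, and *Apoe* in OIR mice was 0.47 and 0.51 from P17 and 0.51 and 0.56 from P12. In OIR mice from P17 the brighter *Lpl* probe was 0.57 with the deposited and scanner ratios and 0.27 with the retina channel. The dimmer *Lpl* probe was 0.64 with offset 0, 1.10 with both ratios and 0.37 with the retina channel from P17, and 0.079, 0.29 and 0.20 from P12, with 0.0047 for the retina channel with a slide block. The dimmer *Vldlr* probe in OIR mice was 0.030 with both ratios, 0.074 with the retina channel and 0.054 with a slide block from P17, and 0.71, 0.26 and 0.22 from P12. In control mice from P12 it was 0.66 with both ratios.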
